A study of Mus musculus with 3 samples.

Results

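The nuclei described here are 1168 nuclei of the mouse forelimb at embryonic day (E) 16.5 that a gate on dermal fibrogenic loci selected. The name is that of the gate, cell types were not assigned, and 117 of the nuclei lay in epidermal-like clusters. All were taken from the 11675 nuclei of that library with 10000 or more counts and from 42365 nuclei in the whole series. They were chosen by accessibility at 9 gene loci: Irx1, Irx2, Crabp1, En1, Col7a1, Nkd2, Rspo1, Axin2 and Lef1. For every nucleus, the counts in peaks that overlap these genes or the 2000 bp upstream of them were summed and divided by the total counts of the nucleus, and the highest-scoring 10% were kept as members. The other 10507 nuclei that passed the depth minimum served for comparison, so values at the 9 loci describe the choice and only loci outside it, or loci held out of it, were read as measurements.

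The series profiled open chromatin in single nuclei by ATAC-seq, in which a transposase cuts accessible DNA, at E16.5 and at the younger stages E14.5 and E12.5. Each stage was 1 library of tdTomato-positive mesenchymal progenitors sorted from C57BL/6J embryos that carried Hic1CreERT2/CreERT2 and Rosa26LSLtdTomato/tdTomato, after dams were gavaged at embryonic day 10 with 7.5 mg tamoxifen in 300 uL sunflower oil. Cells that expressed Hic1 at that time, and their descendants, carry the label in every group, and both copies of Hic1 bear the CreERT2 insertion. At E16.5 the tissue was the part of the forelimb around the elbow, spanning lower stylopod and upper zeugopod, whereas the younger stages used the forelimb, so that stage, tissue and library cannot be told apart. Per the study's methods, E12.5 limbs were digested with Dispase and the later stages with collagenase, pronase and DNase. Digestion therefore cannot be told apart from stage at E12.5 either. Male and female embryos were pooled, and cells positive for blood, endothelial and CD117 surface markers had been removed in the sort.

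Dermal fibroblasts arise from mesenchyme beneath the embryonic ectoderm. WNT ligands from the ectoderm stabilise beta-catenin, which acts with TCF/LEF proteins to open the dermal programme; Axin2, Lef1 and Nkd2 are targets or modulators of that signal and Rspo1 encodes an R-spondin that amplifies it. Irx1, Irx2 and En1 encode homeobox transcription factors, Crabp1 a retinoic acid binding protein, and Col7a1 the collagen of the anchoring fibrils that tie epidermis to dermis. The dermis then divides into an upper papillary layer, which feeds hair follicle formation, and a deeper reticular layer.

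Because each stage had 1 library and no replicate, no test was possible, and intervals given below are exact 95% intervals for counting error only. Accessibility is given as counts per 1000000 counts of a group of nuclei (CPM). The E16.5 library held 413425059 counts in 213613 peaks, against 204289151 at E14.5 and 87048167 at E12.5. Members were shallower than the other nuclei, with a median of 29008 against 31455 counts, and 34.6% of their counts fell in peaks with a protein-coding transcription start against 33.4%. Clustering without peaks near the gate genes set apart 983 epidermal-like nuclei in 2 clusters with Cdh1, Dsp and Pkp1 among their leading genes, and 117 of them were members. Across the 15 epidermal markers the summed level was 405 CPM in members and 372 CPM in other nuclei, with none at 0. Among them Krt5 was at 8.6 against 5.1 CPM, Trp63 at 65.4 against 51.8 CPM, Cdh1 at 40.6 against 43.0 CPM and Cldn4 at 7.5 against 9.8 CPM. Values without these clusters, with the gate drawn again on the remaining nuclei, are therefore given for some of the named genes and peaks. They are also given for the reticular, papillary, hair follicle, matrix, WNT, fibrogenic, fascia, tenogenic, chondrogenic, osteogenic and epidermal lists, but not for the others. E16.5 shared 401 barcodes with E14.5 and 151 with E12.5, and 1 barcode was a member of both E16.5 and E14.5.

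The gate comprised 54 peaks at E16.5, none of which overlapped the locus of another protein-coding gene. Members had a median of 25 counts in these peaks and other nuclei 12. The scores formed a continuum. The lowest members scored 722.41 and 722.46 CPM and the highest nuclei outside scored 722.35 and 722.21, and 551 nuclei lay less than 10% below the boundary. Lef1 and Axin2 supplied 24.95% and 21.8% of the gate counts of members, and Col7a1 4.68%. By construction all 9 loci were higher in members, from Nkd2 on chromosome 13 (66.1 against 42.5 CPM) to Rspo1 on chromosome 4 (64.2 against 20.5 CPM) and Col7a1 on chromosome 9 (41.0 against 13.1 CPM).

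To read each gate locus in nuclei that it did not choose, it was held out and nuclei were gated on the other 8. Irx1 and Irx2 lie on the same chromosome, and each stayed in the gate when the other was held out. Their held-out values are therefore not independent of each other. Col7a1 was then still 29.7 CPM in gated nuclei against 14.2 CPM in the others, a log2 ratio of 1.06 (0.92 to 1.198). Rspo1 stood at 0.95 (0.83 to 1.06), Irx1 at 0.78 (0.68 to 0.87), Lef1 at 0.60 (0.53 to 0.66) and Irx2 at 0.50 (0.40 to 0.59). The rest of the order was lower. Axin2 gave 0.38, En1 0.32 and Crabp1 0.14 (0.02 to 0.26), with the intervals of Axin2 and En1 overlapping. Nkd2 gave -0.05 (-0.15 to 0.06), 43.4 against 44.7 CPM, so that no difference at Nkd2 was detectable when the other 8 loci chose the nuclei. Without the epidermal-like clusters Col7a1 was again the highest, at 29.6 against 13.8 CPM, and Nkd2 the lowest, at 46.2 against 46.3 CPM.

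**Figure D1:**
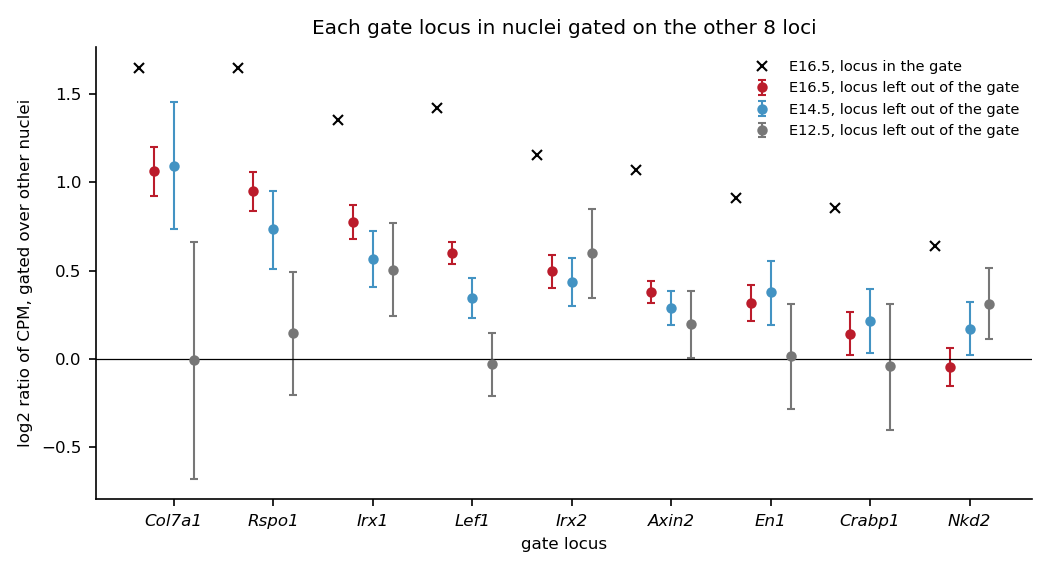
Log2 ratio of CPM in gated over other nuclei for each gate locus, with the locus left out of the gate, in the 3 libraries (points, 95% counting intervals) and with the locus in the gate at E16.5 (crosses). At E16.5, Col7a1 and Rspo1 lie highest at 1.06 and 0.95, and Nkd2 lies at -0.05.

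Accessibility around the gate genes, in peaks that the gate did not use, differed from locus to locus. Within 20000 bp outside the loci, the log2 ratio of members over other nuclei was 2.22 next to Irx1, 1.88 next to Nkd2, 1.72 next to Rspo1 and 0.69 next to Axin2, but -0.01 next to Crabp1 and 0.13 next to En1. These ratios use the full gate, which includes the neighbouring locus, so they are not held-out values. The Iroquois cluster on chromosome 13 was higher over the longest stretch. Peaks 100000 to 500000 bp from Irx2 were at 1.26 (1.19 to 1.32) and peaks 500000 to 1000000 bp from Irx1 at 1.25 (1.21 to 1.29), where the latter distance gave 0.47 (0.43 to 0.51) around Rspo1 and from -0.11 around Axin2 to 0.03 around En1 for the other gate genes. Axin2 stood at 0.49 between 100000 and 500000 bp. The Irx1 and Irx2 neighbourhoods lie on one chromosome and peaks were assigned to the nearer gene.

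Reticular dermal loci, outside the gate, were higher in members. Of 25 listed genes, all had a peak, 21 reached the median accessibility of autosomal protein-coding genes, and 18 of these 21 were 1.2-fold or more higher in members and 1 was lower. Over all 8537 genes tested, 10.4% were that much higher and 10.1% that much lower, which are the shares beside the counts of every E16.5 list below. The median log2 ratio of the list was 0.51, beside 0.03 over all genes tested. The lists were drawn in part from genes that the study names from its RNA data on the same tissue and are not independent evidence of direction.

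Bcl11b, a zinc-finger transcription factor on chromosome 12 (107910403 to 108003602, mm10), was at 291 CPM (284 to 300) in members against 156 CPM (154 to 157) in other nuclei, a log2 ratio of 0.91. Twist2, a basic helix-loop-helix regulator of dermal fibroblasts on chromosome 1 (91801461 to 91848028), was at 169 CPM (163 to 175) against 105 CPM (103 to 106), a log2 ratio of 0.69. Thinned to 5000 fragments per nucleus, 67.8% of members and 49.1% of other nuclei had a Bcl11b fragment, and 47.1% and 37.7% a Twist2 fragment. For comparison, Ptprc, which encodes the CD45 removed by the sort, had a fragment in 6.1% and 4.3%.

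The remaining transcription factors of the reticular list were also more open in members, though Twist1 by less than 1.2-fold. Irx5 was at 159 against 98.9 CPM and Irx3 at 65.9 against 47.2 CPM, so that Iroquois genes of the second cluster, on chromosome 8, followed those of the gate. Zfp536 had a log2 ratio of 0.81, Hoxb9 0.81, Casz1 0.47, Bcl11a 0.45 and Zeb2 0.45, the last of these an E-box repressor. The WNT effector Tcf7 was at 68.8 against 46.7 CPM and the WNT-induced repressor Sp5 at 49.0 against 28.4 CPM. Twist1, the close relative of Twist2, was at 47.1 against 43.3 CPM, a log2 ratio of 0.12 (0.01 to 0.22).

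Surface and signalling genes made up the rest of the list. The potassium channel gene Kcna4 had the highest ratio, 1.07, on low levels of 17.2 against 8.2 CPM. The semaphorin receptor gene Plxna4 was at 240.0 against 131 CPM, Tmem132c at 371 against 271 CPM and the ephrin gene Efna5 at 306 against 251 CPM. Log2 ratios were 0.67 for the claudin gene Cldn10, 0.58 for Lix1, 0.54 for Nrgn, 0.51 for Emp2, 0.50 for the adhesion molecule gene Vcam1, 0.49 for Tnfrsf19 and 0.27 for the parathyroid hormone receptor gene Pth1r. Besides Twist1, the exceptions were Fbln1, at 78.9 against 85.4 CPM, and Dlk1, which was lower in members at 38.02 against 57.5 CPM. Dlk1 encodes a Notch-family transmembrane protein, and its log2 ratio of -0.60 was the lowest of the reticular list. The study gives Dlk1 as a positive marker of adult reticular fibroblasts and describes it as broad across its embryonic lineage tree.

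Papillary dermal loci were higher as well, to a lesser degree. Of 25 listed genes 18 were tested, 11 of the 18 were 1.2-fold or more higher and 0 lower, and the list median was 0.36. Adamts20, which encodes a secreted metalloprotease, was at 179.6 CPM (173 to 186) against 91.0 CPM (89.6 to 92.4), a log2 ratio of 0.98. Sostdc1, an inhibitor of WNT and BMP signals, had a ratio of 0.77, the transcription factor Runx3 0.73, the growth factor gene Nrtn 0.71, the metalloprotease gene Adamts18 0.62, Frem1 of the basement membrane zone 0.45, Bmp7 0.40, the WNT feedback inhibitor Nkd1 0.36, Prdm1 0.35, Glis1 0.33 and Lrig1 0.30.

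Several genes known for the papillary dermis or dermal papilla were below the median accessibility and were not among the 18. Hs3st6 had a ratio of 0.69, Ndnf 0.62, Sox18 0.60, Sox2 0.48, Foxd1 0.46 and Edn3 0.31. Ptch1, the Hedgehog receptor gene, was at 197 against 175 CPM, and Cyp26b1, which degrades retinoic acid, at 82.7 against 82.0 CPM. Ebf1 was at 287 against 315 CPM. The gate thus did not separate papillary from reticular loci, both lists being higher.

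Hair follicle dermal loci moved less. Of 13 genes 10 were tested, 2 were higher and 1 lower, beside 10.4% and 10.1% over all genes tested, and the list median was 0.20. Itga8, an integrin gene, was at 161 against 111 CPM and Corin, a protease gene of the dermal papilla, at 135 against 95.6 CPM, while Bmp3 was lower at 30.1 against 43.3 CPM. Below the median accessibility, the WNT inhibitor Dkk1 was at 15.9 against 9.1 CPM and Cxcr4 at 35.5 against 29.5 CPM. Among 16 dermal matrix genes 5 were higher and 3 lower of 15 tested. Col6a1, Col1a2, Col3a1 and Dcn had log2 ratios of 0.47, 0.44, 0.39 and 0.38, whereas Tnxb, encoding tenascin-X, was at 42.8 against 74.0 CPM, a log2 ratio of -0.79.

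**Figure D2:**
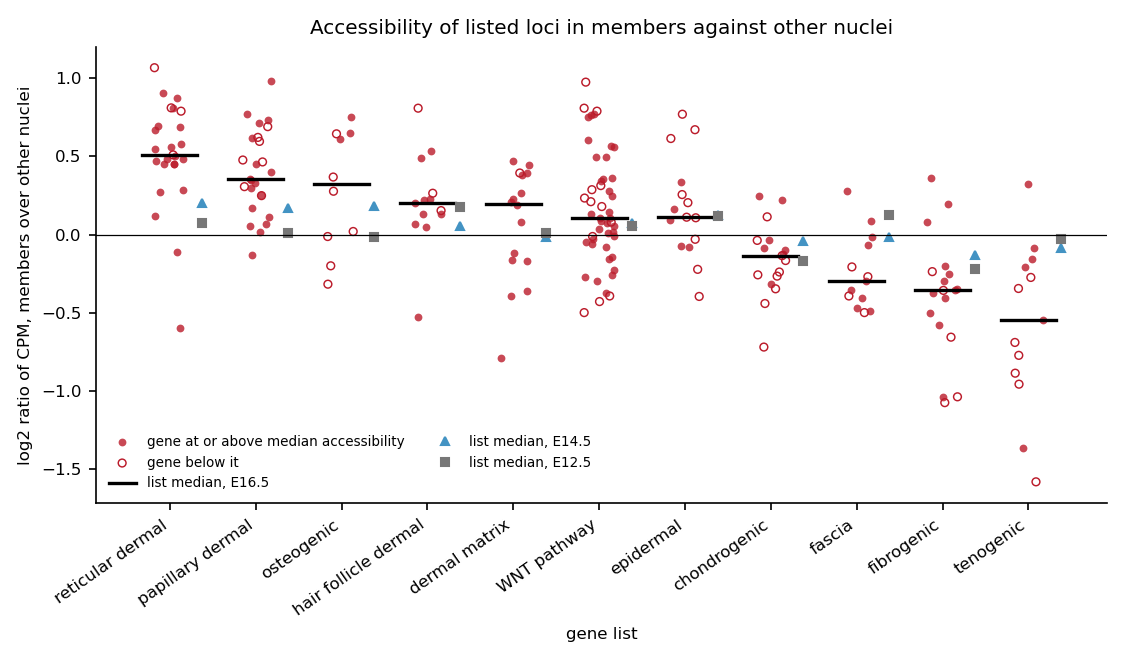
Log2 ratio of CPM in members over other nuclei for each gene of 11 lists at E16.5 (circles; filled, at or above the median accessibility), with list medians at E16.5 (bars), E14.5 (triangles) and E12.5 (squares). Reticular and papillary medians lie at 0.51 and 0.36, fibrogenic and tenogenic medians at -0.36 and -0.55.

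WNT pathway loci outside the gate ran in both directions. The WNT list shares Tcf7 and Sp5 with the reticular list and Nkd1, Sostdc1 and Fzd2 with the papillary list. It also shares Dkk1 with the hair follicle list and Rspo2, Sfrp4 and Lgr5 with the fascia list. The counts of these lists are therefore not separate. Of 48 listed genes 35 were tested, of which 12 were higher and 3 lower, with a list median of 0.11. Without the epidermal-like clusters 12 were higher and 5 lower, with a median of 0.09. Among ligands, Wnt11, Wnt10a and Wnt6 were higher at ratios of 0.60, 0.56 and 0.50, with Wnt10a at 90.4 against 61.2 CPM, Wnt5a followed at 0.34 and Wnt4 at 0.28, and the less accessible Wnt3 was at 0.31. R-spondins other than Rspo1 did not follow it. Rspo2 was at 18.5 against 26.2 CPM and Rspo4 at 9.3 against 12.5 CPM, ratios of -0.50 and -0.43, and Rspo3 at 49.0 against 46.6 CPM.

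Receptors were split. Fzd10 was at 54.4 against 32.3 CPM, a ratio of 0.75, Lgr6 at 0.36 and the less accessible Fzd9 at 0.29, while Lgr5, the co-receptor gene Lrp6 and its relative Lrp5 were lower at -0.30, -0.37 and -0.27. Secreted inhibitors included the highest ratio of the list. Wif1 was at 125.0 against 73.7 CPM, and Sfrp5, at low levels of 16.1 against 8.2 CPM, had a ratio of 0.97, whereas Sfrp4 was at -0.39 (-0.60 to -0.19). The membrane-bound inhibitor gene Apcdd1 was at 63.8 against 45.3 CPM. Ctnnb1, which encodes beta-catenin itself, was at 54.6 against 46.0 CPM, a ratio of 0.25, and its partner genes Tcf7l1 and Tcf7l2 at 0.09 and -0.06.

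Fibrogenic, fascia and tenogenic loci were less open in members by their list medians. In the fibrogenic list, which holds genes of connective tissue fibroblasts, some of them also known from the dermis, 8 of 13 tested genes were lower and 1 higher, with a median of -0.36. Fap, a fibroblast protease gene, was at 32.8 against 67.3 CPM, a log2 ratio of -1.04 (-1.16 to -0.92). Clec3b was at 41.3 against 61.6 CPM, the microfibril gene Fbn1 at 129 against 183 CPM, Dpt at 36.9 against 47.8 CPM, Col15a1 at 88.6 against 114 CPM and Creb5 at 413 against 507 CPM. Dpp4, a surface peptidase gene also known from papillary fibroblasts, had a log2 ratio of -0.20. Mfap5 and Pi16, less accessible genes of the same list, were at 13.9 against 29.3 CPM and at 15.1 against 23.8 CPM. Adamts5 was higher at 75.5 against 58.7 CPM, and Cd248 was at 85.3 against 74.4 CPM, a log2 ratio of 0.20 (0.12 to 0.27).

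Of the fascia list 5 of 9 tested genes were lower and 1 higher, with a median of -0.30, from Rspo2 at -0.50 to Fst, encoding follistatin, at 0.28. Without the epidermal-like clusters 5 were lower and 0 higher, with Fst at 0.22. Tenogenic loci had the lowest median, -0.55, although 7 of the 13 genes were below the median accessibility and 2 of the 6 tested were lower. C1qtnf3, counted among these lower genes, was at 13.9 against 35.8 CPM, a log2 ratio of -1.36 (-1.55 to -1.18). The study, however, gives C1qtnf3, Mfap5 and Clec3b as fascia markers. Here C1qtnf3 was in the tenogenic list, Mfap5 and Clec3b were in the fibrogenic list, and the fascia list held none of them. Tnmd, encoding tenomodulin, was at 6.9 against 11.1 CPM, and Scx, the tendon transcription factor gene, which lies inside Bop1, at 10.7 against 13.6 CPM. Ptx4 had the lowest ratio, -1.58, on levels of 2.0 against 6.1 CPM. Mkx, another tendon regulator, was higher at 101 against 81.2 CPM.

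Few chondrogenic loci passed 1.2-fold. Their median was -0.13, and 0 of 7 tested genes were higher and 1 lower. Sox9 was at 53.6 against 58.4 CPM, Col2a1 at 93.4 against 99.9 CPM, Acan at 18.3 against 21.9 CPM and Col9a1 at 41.2 against 34.7 CPM, with Cnmd lowest at -0.72. Osteogenic loci had a list median of 0.32, with a wide interval of -0.44 to 1.05 for its middle genes. With the gate drawn on nuclei thinned to 5000 fragments the median was 0.10. Only 3 of the 10 genes were tested, and these 3 were all higher. The transcription factor gene Runx2 was at 374 against 245 CPM, and Alpl, encoding alkaline phosphatase, at 65.3 against 41.7 CPM. The whole list summed to 644 against 435 CPM, so that Runx2 held most of its counts. Ibsp and Bglap, expressed by mature osteoblasts, were at 0.3 CPM or less in both groups, and Dmp1 was lowest at -0.32.

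Several of these loci differed along the gate score, the lists mostly in its upper classes. Between the lowest-scoring and the highest-scoring 10% of the nuclei, Bcl11b went from 119 to 292 CPM, Twist2 from 87.6 to 169 CPM and Irx5 from 81.6 to 159 CPM, while Fap went from 79.3 to 32.8 CPM and C1qtnf3 from 42.8 to 13.9 CPM. The reticular median relative to all nuclei went from -0.22 in the lowest 10% to 0.25 in the next to highest and 0.46 in the highest 10%. The fibrogenic median lay between 0.02 and 0.08 in the lowest 7 of the 10 classes and at -0.33 in the highest, and the chondrogenic median lay between -0.06 and 0.06 up to the last class, where it was -0.12. The lowest 10% were also the shallowest, with a median of 21154 counts against 29025 in the highest, and the part of depth in these values was not tested. With the gate drawn within each of 10 depth classes the list medians were 0.50 for reticular and 0.35 for papillary loci.

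**Figure D3:**
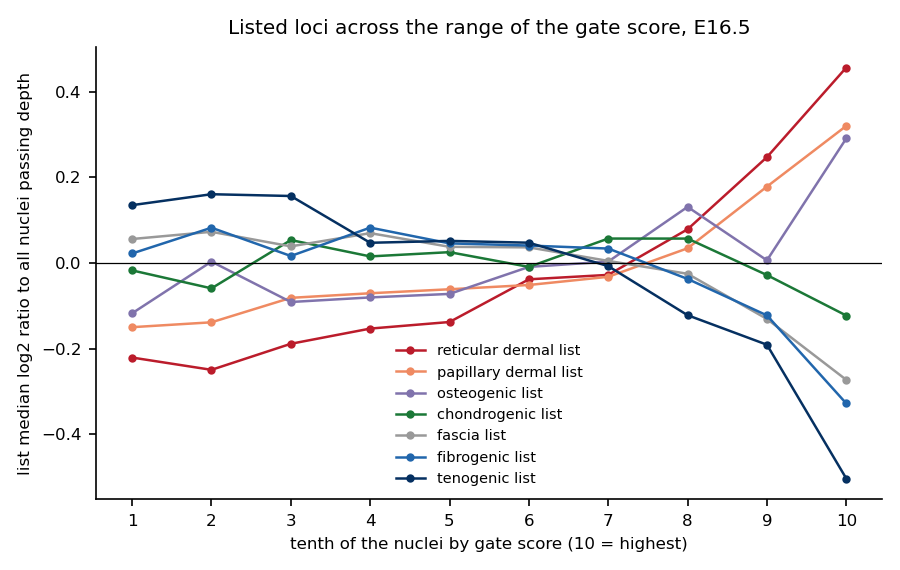
Median log2 ratio of listed loci to all nuclei passing depth (vertical axis) in 10 equal classes of the E16.5 nuclei ordered by gate score (horizontal axis). Reticular and papillary lines climb to 0.46 and 0.32 in the highest class, and the tenogenic line drops to -0.50.

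The loci that chose the members did not contribute alike. Nuclei gated on Nkd2, Axin2 and Lef1 alone had reticular and papillary medians of 0.39 and 0.29, nuclei gated on Col7a1 and Rspo1 alone 0.42 and 0.27, and nuclei gated on Irx1 and Irx2 alone 0.32 and 0.18. Nuclei gated on Crabp1 and En1 alone had medians of 0.08 and 0.07, with a fibrogenic median of 0.01, and 28.1% of them were members. The Crabp1 and En1 gate rested on a median of 6 counts per gated nucleus and the Col7a1 and Rspo1 gate on 4. Apart from their own loci, the Col7a1 and Rspo1 gate had Lef1 at 0.66 and Irx1 at 0.58.

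Gates drawn by the same rule from other lists overlapped with the members to different extents. Of the 1168 nuclei gated on reticular loci 476 were members, 40.8% (37.9 to 43.6) of either gate, and of those gated on papillary loci 381, or 32.6%. Gates on osteogenic loci shared 345 nuclei, 29.5% (26.9 to 32.2), although most counts of that list lie in Runx2. Of the nuclei outside the dermal gate, 6.59%, 7.49% and 7.83% fell in the reticular, papillary and osteogenic gates. The share was 4.62% (3.49 to 5.99) for the fibrogenic gate, 5.48% for the tenogenic gate and 7.88% for the chondrogenic gate, beside 10.6%, 10.5% and 10.2% of the nuclei outside it. All gates have the same size and divide by the same nucleus total.

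In a clustering of the E16.5 nuclei into 7 clusters that left out peaks within 100000 bp of the gate genes, 619 members, 53.0% (50.1 to 55.9), fell in cluster 3, which held 10.2% of the other nuclei. Cluster 3 had 1691 nuclei, of which 36.6% were members. Its list medians against all other nuclei were 0.77 for reticular, 0.49 for papillary, 0.03 for osteogenic, -0.45 for fibrogenic and -0.68 for tenogenic loci. Cluster 2, high in fibrogenic loci at 0.52, held 14.5% of members and 27.7% of other nuclei, and cluster 5, high in tenogenic loci at 0.92, held 1.03% and 9.21%. The chondrogenic-like cluster 4, led by Col9a1, Col2a1 and Hapln1, held 10.1% and 13.4%. The epidermal-like clusters 6 and 7 held 8.65% and 1.37% of members and 4.10% and 4.14% of other nuclei. Their epidermal medians were 2.01 and 2.14, and those of clusters 1, 2, 4 and 5 were -0.70, -0.57, -0.25 and -0.51.

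**Figure D4:**
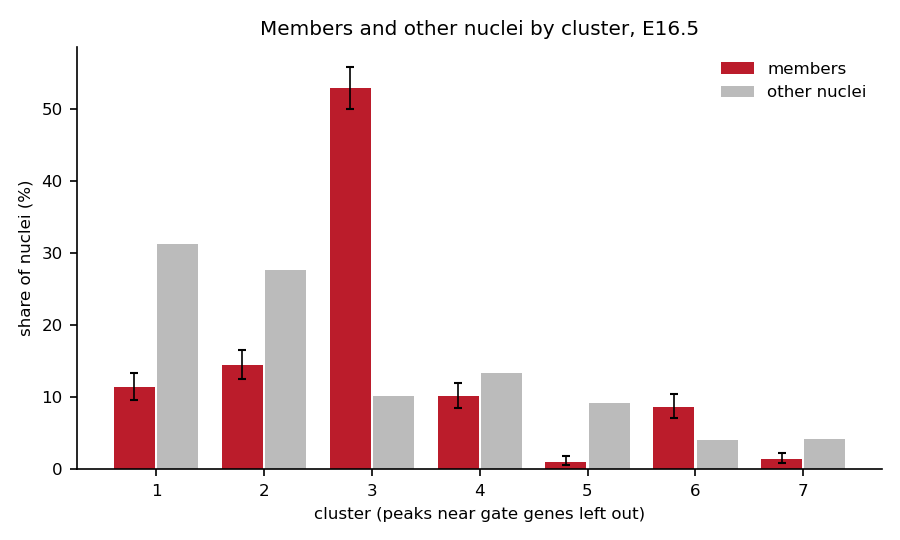
Share of members and of other E16.5 nuclei in each of 7 clusters (bars; lines are 95% counting intervals of the members' share). Cluster 3 holds 53.0% of members and 10.2% of other nuclei.

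The 549 members outside cluster 3 included the 117 in the epidermal-like clusters. As a mixture they had an epidermal median of 0.72 against other nuclei outside cluster 3, and the rest of them were not read apart. They were also shallower than the members of cluster 3. They had a median of 22635 counts, against 33870 for members inside it. Against other nuclei outside cluster 3 their reticular and papillary medians were 0.19 and 0.13, Bcl11b was at a log2 ratio of 0.44 and Irx5 at 0.63, but Twist2 was at -0.09, and Krt5 and Krt14, keratin genes of the basal epidermis, were at 1.91 and 1.72. Inside cluster 3, members against the other 1072 nuclei gave 0.17 and 0.14, with Twist2 at 0.21, Bcl11b at 0.22, Fap at -0.70 and C1qtnf3 at -1.03, and Krt5 at -0.93. The chondrogenic median, -0.13 over all members, was 0.18 for members outside cluster 3 and -0.04 for those inside it.

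Without the epidermal-like clusters, 1069 members gave medians of 0.54 for reticular, 0.38 for papillary, -0.36 for fibrogenic and -0.54 for tenogenic loci, with 18, 12, 1 and 1 of the tested genes of those lists higher and 1, 0, 8 and 2 lower. Medians of the other lists were 0.19 for hair follicle, 0.21 for matrix, -0.15 for chondrogenic and 0.22 for osteogenic loci, with 2, 5, 1 and 3 genes higher and 1, 3, 1 and 0 lower. Over all genes 10.8% were higher and 11.1% lower in this setting. The summed level of the epidermal list was then 278 CPM in members and 282 CPM in other nuclei, and 1 of its 5 tested genes was higher and 1 lower, where 1 was higher and 0 lower with these clusters included. Within it Krt15, Krt5 and Krt14 went from 0.67, 0.77 and 0.61 to -0.26, -0.06 and -0.12, Trp63 from 0.34 to 0.31, and Cdh1 and Cldn4 from -0.08 and -0.40 to -0.43 and -1.07. Of the WNT list, Wnt3 went from 0.31 to 0.17 and Rnf43 from -0.08 to -0.32.

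Outside the lists, the highest loci included neighbours of developmental regulators as well as genes with their own known roles. Tmem132d was at 79.8 against 30.5 CPM, a log2 ratio of 1.39 (1.31 to 1.48). Rpgrip1l, a cilium gene in the neighbourhood of Irx3 and Irx5, was at 204 against 86.3 CPM, and Myo3b, beside Sp5, at 216 against 94.5 CPM. Epsti1, Sytl2, Ankfn1, Scel, Trpm1 and Cog7 had ratios of 1.26, 1.07, 1.07, 1.05, 1.04 and 1.01. None of these ratios dropped without the epidermal-like clusters, where Scel, a gene of stratified epithelia, was at 1.14.

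Among the 10 lowest, Hgf, which encodes hepatocyte growth factor, was at 16.1 against 34.4 CPM, a log2 ratio of -1.09 (-1.26 to -0.92). Fmo6 was at -1.48, Tgm3 at -1.40, Scg3 at -1.38, Tm4sf1 at -1.27, Gabrg3 at -1.27, Slc35f4 at -1.22, Cntnap5b at -1.20, Hmgcll1 at -1.19 and Gm765 at -1.07. Accessibility over a gene body can stem from elements of neighbouring genes, so a ratio belongs to the interval and not to the transcription of the gene.

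At single peaks, of 185959 peaks outside the gate and over 100000 bp from its genes with a count in 1% or more of nuclei, 29567 were 1.5-fold or more higher in members with a counting interval leaving out 1, which is 15.9%, and 51143, or 27.5%, were as much lower. Among the higher peaks 0.890% held a transcription start, close to the 1.003% of the lower peaks and against 6.82% of all these peaks. The 6 peaks with the highest ratios were rarely open, and the minimum of 1% was applied to all nuclei together. The Pappa2, Ntng1, Ano2 and Celf2 peaks were in under 1% of other nuclei and so passed it through the members, which in part fixes their rank. That in an intron of Pappa2, a pregnancy-associated plasma protease gene, had a count in 4.79% of members and 0.771% of other nuclei, a log2 ratio of 3.12 (2.60 to 3.65). The others lay in introns of Ano2 and Mtrr, 383337 bp from the start of Ntng1, 456660 bp from that of Nuf2 and 36449 bp from that of Celf2, with ratios of 2.99 to 3.08. The peak near Nuf2 was the most frequently open, in 10.2% of members and 1.64% of other nuclei.

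The windows of 300 bp around the centres of these 6 peaks are shown because these peaks had the highest ratios, read on the plus strand of GRCm38 (mm10). Capitals mark CAGATG and CATATG, the E-boxes that TWIST-family proteins can bind, and TAATTA, the core of many homeobox sites, each searched on both strands, so that CATCTG is CAGATG on the other strand.
Pappa2 intron, chr1:158929418-158929717: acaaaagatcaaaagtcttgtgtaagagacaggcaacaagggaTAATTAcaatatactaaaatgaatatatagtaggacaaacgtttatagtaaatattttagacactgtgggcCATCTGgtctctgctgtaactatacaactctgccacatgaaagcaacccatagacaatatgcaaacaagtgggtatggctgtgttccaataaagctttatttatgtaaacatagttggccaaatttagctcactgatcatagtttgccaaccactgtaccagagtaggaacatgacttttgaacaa
nearest to Ntng1, chr3:109760524-109760823: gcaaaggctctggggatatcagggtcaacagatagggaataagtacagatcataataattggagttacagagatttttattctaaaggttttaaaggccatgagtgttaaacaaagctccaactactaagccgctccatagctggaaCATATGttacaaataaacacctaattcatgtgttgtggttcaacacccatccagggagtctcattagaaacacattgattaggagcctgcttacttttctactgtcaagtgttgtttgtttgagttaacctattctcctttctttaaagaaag
Ano2 intron, chr6:125822808-125823107: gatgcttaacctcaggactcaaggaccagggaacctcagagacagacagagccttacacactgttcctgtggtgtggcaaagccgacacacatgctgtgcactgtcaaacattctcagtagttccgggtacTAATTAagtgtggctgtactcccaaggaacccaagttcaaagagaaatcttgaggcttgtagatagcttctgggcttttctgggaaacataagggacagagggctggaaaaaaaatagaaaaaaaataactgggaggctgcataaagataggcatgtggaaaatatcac
Mtrr intron, chr13:68575514-68575813: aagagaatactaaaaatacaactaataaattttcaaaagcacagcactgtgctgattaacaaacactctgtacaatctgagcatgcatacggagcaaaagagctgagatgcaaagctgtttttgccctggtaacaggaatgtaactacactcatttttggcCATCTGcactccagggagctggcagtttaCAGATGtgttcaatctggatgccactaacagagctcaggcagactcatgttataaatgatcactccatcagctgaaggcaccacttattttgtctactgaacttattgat
nearest to Nuf2, chr1:169074654-169074953: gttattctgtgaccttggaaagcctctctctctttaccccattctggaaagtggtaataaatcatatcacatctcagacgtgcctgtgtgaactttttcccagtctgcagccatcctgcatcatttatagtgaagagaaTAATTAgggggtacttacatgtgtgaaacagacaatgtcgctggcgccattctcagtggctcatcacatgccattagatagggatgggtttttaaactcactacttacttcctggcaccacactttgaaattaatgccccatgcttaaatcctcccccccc
nearest to Celf2, chr2:7545862-7546161: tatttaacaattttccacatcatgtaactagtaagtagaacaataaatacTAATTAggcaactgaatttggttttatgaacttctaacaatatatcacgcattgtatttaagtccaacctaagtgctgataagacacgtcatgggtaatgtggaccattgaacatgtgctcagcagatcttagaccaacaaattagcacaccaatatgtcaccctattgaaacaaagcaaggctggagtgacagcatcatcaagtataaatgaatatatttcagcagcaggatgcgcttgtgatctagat

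Over all 29567 member-higher windows, 54.4% (53.8 to 55.0) held CAGATG or CATATG, against 33.0% of member-lower windows and 34.9% of all 185959. CAGATG alone was in 45.9%, 28.1% and 29.7% of the 3 sets and CATATG in 15.1%, 6.7% and 7.7%. Other E-boxes differed less or the other way. CAGCTG was in 23.9%, 22.7% and 21.6%, CAAATG in 25.6%, 22.7% and 20.9%, and CACCTG in 10.3%, 16.1% and 16.7%. TAATTA was in 13.8%, 6.4% and 7.6%, ACATGT, the palindrome of Iroquois sites, in 16.5%, 8.6% and 9.7%, and TGTGGT, the RUNX core, in 27.8%, 20.2% and 21.9%.

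The TCF/LEF sequence CTTTGAT was in 5.9% (5.7 to 6.2) of member-higher windows, 4.2% of member-lower and 4.5% of all windows. The AP-1 sequence TGANTCA and the nuclear receptor core AGGTCA were less frequent in member-higher windows, at 16.04% and 12.4%, than in member-lower windows, at 20.2% and 18.7%. On the higher side the E-box share climbed with the ratio. CAGATG or CATATG was in 29.9% of windows within 1.5-fold, 43.2% at 1.5 to 2-fold, 56.2% at 2 to 4-fold and 68.9% at 4-fold or more higher. On the lower side the share also rose with the fold, through 31.8% and 33.3% to 36.4%. AP-1 and AGGTCA shares fell from 17.9% and 15.9% within 1.5-fold to 12.8% and 9.7% at 4-fold or more higher. GC content was 43.0% at 4-fold or more higher and 43.3% at 4-fold or more lower. TAATTA was in 21.3% and 6.1% of those outermost classes. Without the epidermal-like clusters, 54.5% of member-higher windows held CAGATG or CATATG and 13.7% TAATTA. A match is a description of the letters in a window, windows of neighbouring peaks can share sequence, rarely open peaks of the high classes can have passed the minimum of 1% through the members alone, and the same nuclei set the ratio and its classes.

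**Figure D5:**
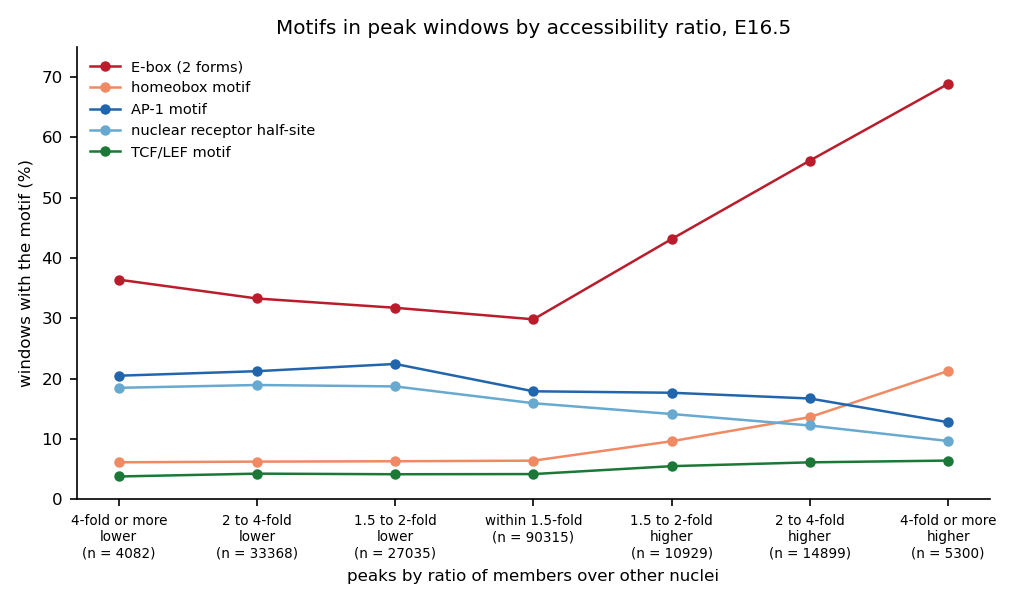
Share of 300 bp peak windows with each motif (vertical axis) by class of the ratio of members over other nuclei at E16.5 (horizontal axis, number of windows below). The E-box line, for CAGATG or CATATG, runs from 29.9% within 1.5-fold to 68.9% at 4-fold or more higher; the TCF/LEF line stays between 3.8% and 6.4%.

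The same gate was drawn at E14.5, where 840 of 8397 nuclei were members, and at E12.5, with 266 of 2664. None of these nuclei had entered the E16.5 gate. At E14.5 the gate held 36 peaks, since fewer peaks were called there. Held-out loci had log2 ratios of 1.09 for Col7a1, 0.73 for Rspo1 and 0.57 for Irx1, and of 0.17 (0.02 to 0.32) for Nkd2. At E12.5 Col7a1 was at 0.00 (-0.68 to 0.66), Rspo1 at 0.15 and Lef1 at -0.03, and the highest were Irx2 at 0.60, Irx1 at 0.51 and Nkd2 at 0.31 (0.11 to 0.51). The 2 Irx loci and Nkd2 lie within the same part of chromosome 13.

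Dermal loci outside the gate were higher at E14.5 by less. The reticular median was 0.20 and the papillary 0.17, and 3 genes of each list passed 1.2-fold and 0 were lower, where 2.32% of all genes were higher and 1.81% lower. Twist2 was at 101 against 76.9 CPM, Irx3 at 56.1 against 38.8 CPM, Tcf7 at 57.1 against 41.0 CPM and Adamts20 at 122 against 96.9 CPM. The fibrogenic and tenogenic medians were -0.13 and -0.08, with 1 of 7 and 1 of 4 tested genes lower and 0 higher. Fap and C1qtnf3, the lowest of these lists, were at 40.4 against 60.0 CPM and, below the median accessibility, at 11.9 against 21.6 CPM, while Dpt and Ptx4 were the highest at 0.54 and 0.28. At E12.5 the reticular and papillary medians were 0.07 and 0.01, where 4.47% of all genes were higher and 4.63% lower. The fibrogenic median at that stage was -0.22 (-0.63 to 0.17) and the tenogenic -0.03. Twist2 was there at 109.8 against 105 CPM and Bcl11b at 180.4 against 182 CPM. Bcl11b was thus open at all 3 stages and was set apart in members by 0.91 at E16.5, 0.19 at E14.5 and -0.01 at E12.5.

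Of 703 genes higher in E16.5 members and tested at E14.5, 83.4% had a ratio above 0 there, beside 65.6% of all 7407 genes tested in both. For the 637 genes lower at E16.5 the share above 0 was 15.5%. At E12.5 the shares were 54.5% and 44.9%, beside 50.9% of all. Depth differed between the libraries, the median of members being 14254 counts at E14.5 and 15876 at E12.5. When every nucleus was first thinned to 5000 fragments and the gate drawn on those, the reticular median was 0.32, 0.17 and 0.07 at E16.5, E14.5 and E12.5, the papillary 0.24, 0.08 and 0.07 and the tenogenic -0.26, -0.01 and 0.00. The fibrogenic median was -0.19, -0.04 and -0.09 in the same order of stages. The gate peaks still differed between the libraries, and no difference between stages could be tested.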

How the data were processed

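Per the labels and the file headers, the authors processed single-nucleus ATAC-seq reads with Cell Ranger ATAC against mm10, version 1.1.0 in the processing notes and 1.0.1 (E12.5, E14.5) or 1.2.0 (E16.5) in the headers of the matrices. The deposited values are raw counts of transposase cut sites per peak and nucleus, with peaks called separately in each library, so that levels were not compared across libraries. Most entries were even (92.5% at E16.5) because both ends of a fragment are counted; intervals were therefore computed on counts divided by 2. Nuclei with under 10000 counts were left out, and no doublet caller was run, the deepest 5% being left out as an alternative.

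Genes were taken from GENCODE vM21 (GRCm38), and a peak counted for every gene whose body or 2000 bp upstream it overlapped. Members, lists and comparisons were chosen with earlier results of these data known. A gene was counted as higher or lower at 1.2-fold or more, among protein-coding genes of the autosomes that reached the median accessibility and lay over 100000 bp from gate genes. Named were all gate genes, genes of the 3 dermal lists and the WNT list past 1.2-fold, the extremes of other lists with genes the study names for them, the 10 highest and 10 lowest genes outside the lists and the 6 highest peaks; other genes were named for their known role after their values were seen, and some that the rule names are not reported here. Ratios carry exact conditional binomial intervals, levels exact Poisson and shares Clopper-Pearson intervals, all at 95%; reads are not independent molecules and these cover counting error only. Clusters came from latent semantic indexing (30 components, less 2 that followed depth) and k-means in scikit-learn 1.9.0; other steps used SciPy 1.17.1 and Python 3.11.15. Scripts were tested on simulated data. Clusters were called epidermal-like where the median log2 ratio of the epidermal list passed 1, a rule set after the data were seen. Alternatives were other gate shares, depth minimums, locus weights, peak sets, scalings, folds and cluster numbers.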

Additional observations from a re-analysis of the deposited data

Results flagged for a closer look

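Some listed loci moved in opposite directions with the gate at E16.5 and E14.5, with both counting intervals leaving out 0; each stage is 1 library and the difference was not tested. Dpt, a dermatopontin gene of connective tissue matrix, had a log2 ratio of members over other nuclei of -0.37 at E16.5 and 0.54 at E14.5. Efemp1, a fibulin gene, was at -0.36 and 0.28. Corin was at 0.49 and -0.17, and the limb and skin transcription factor Tbx15 at 0.33 and -0.092. Smaller opposed values were 0.18 and -0.21 for Wnt2, 0.10 and -0.18 for Hoxa10, -0.18 and 0.13 for Shox2, -0.16 and 0.14 for Sox11, and 0.071 and -0.10 for Trps1.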

How the results depend on the processing

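No paired analysis was possible because each stage has 1 library. Of 126 values under alternatives, 0 changed direction, and 24, all given here, left a band around the reported value (1.5 times for counts of genes or peaks, otherwise the counting interval). Counts of genes or peaks and shares of members have no direction, so only list medians and held-out loci could have changed it. Of the 126, 10 could not move, because no gate peak overlapped another gene and leaving such peaks out repeated the reported analysis. For list medians that band is the interval of the middle gene alone and does not measure the stability of the list. The reticular median was 0.51 without Axin2, the locus with the most gate counts over all nuclei, 0.51 without the deepest 5% of nuclei and 0.50 scaled by the median ratio. In the highest-scoring 5%, medians were 0.50 for papillary, -0.49 for fibrogenic and -0.72 for tenogenic loci and 60.6% of members were in cluster 3; in the highest 20% the last was 42.8%, with 20000 or more counts 60.8%, without epidermal-like clusters 58.6%, and the leading of 10 clusters held 37.7%. Equal weight of loci gave a chondrogenic median of -0.29, and peaks of a single gene a tenogenic median of -0.69. Genes higher and lower numbered 889 and 862; they numbered 2182 and 2882 without an accessibility minimum and 153 and 174 at 1.5-fold. With the gate drawn on thinned nuclei, chosen after seeing the data, the held-out median went from 0.50 to 0.35, papillary to 0.24, reticular to 0.32, fibrogenic to -0.19 and tenogenic to -0.26, genes to 351 and 285, and the cluster share to 40.1%, a gate on fewer counts. Beside 0.36 and 0.51 at E16.5, papillary and reticular medians at E14.5 were 0.17 and 0.20. Depth limits the gate: members rest on a median of 25 counts.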

Other observations

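Among 22 genes of limb position, 16 were tested at E16.5, of which 4 were 1.2-fold or more higher in members and 0 lower. Over all genes tested 10.4% were higher and 10.1% lower. Tbx15, Emx2 and Lmx1b, which encode transcription factors of skeleton and skin, the limb girdle and the dorsal limb, were at 259.8 against 206 CPM, 84.2 against 59.1 CPM and 192 against 154 CPM. Among Hox genes below the median accessibility, Hoxc10 was at 23.8 against 14.1 CPM, Hoxb6 at 31.9 against 21.0 CPM, Hoxa13 at 37.0 against 25.4 CPM and Hoxc9 at 28.7 against 20.6 CPM. At E14.5 Hoxc10 was at 12.9 against 8.3 CPM. Hoxa11 and Tbx5, in contrast, were at 94.6 against 95.4 CPM and 136 against 128 CPM.

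Markers of cell types outside the lineage were summed over each list in both groups of E16.5 nuclei. The blood list summed to 70.6 CPM in members and 66.1 CPM in other nuclei over its 5 genes with a peak. No peak was called at its other 4 genes, which were therefore not measured. The Schwann, melanocyte and myogenic lists summed to 172 against 152, 142 against 155 and 154 against 143 CPM. The endothelial list summed to 396 against 365 CPM, and within it Cdh5 was at 30.7 against 12.7 CPM while Tek was at 31.2 against 57.4 CPM and Emcn at 3.8 against 7.3 CPM; their part in the results was not tested. Pericyte loci differed as unevenly, from Pdgfrb at 113 against 81.9 CPM to Abcc9 at 32.4 against 64.5 CPM; Higd1b and Lypd2, of the pericyte and perineural lists, were under 3 CPM. The perineural list median was 0.02, that of 9 progenitor genes 0.19 with Hic1, the gene of the lineage label, at 108 against 94.7 CPM, and that of 6 cell cycle genes 0.15 with Mki67 at 34.0 against 30.9 CPM.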
